A study of Mus musculus with 5 samples.

Results

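Limb ectoderm of the mouse embryo carried 421 regions of open chromatin that lay at the ends of protein-coding genes and had no counterpart among the forebrain peaks. They were found by ATAC-seq, in which a transposase cuts and tags DNA that is not packed away in nucleosomes, so that a pile of reads (a peak) marks accessible DNA. The labels give CD1 as the strain and name no allele or treatment: 2 libraries of ectoderm from the distal forelimb at E14.5, 2 from the distal hindlimb at the same age, and 1 library of forebrain at E13.5 (E, embryonic day). Trypsin was used to lift the ectoderm off the mesoderm, and collagenase to digest the forebrain, so that tissue, stage and enzyme cannot be told apart, and nothing says whether replicates came from separate embryos. The series title concerns ectodermal enhancers of Hoxc genes.

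All peaks on chromosomes 1 to 19 and X were merged where they overlapped by at least 1 bp, which gave 231437 regions. A region was kept when each of the 4 ectoderm libraries had a peak in it, forebrain had none, and its midpoint was no more than 2.5 kb from the start or far end of some protein-coding gene (mm10 coordinates, RefSeq genes of GRCm38.p6). Of 5379 regions that met the conditions on peaks, 421 also met the condition on position (7.83%, 95% exact interval 7.12 to 8.58), and the other 4958 served for comparison. The regions were chosen by the presence and absence of the authors' peak calls, so their difference from forebrain is a description and not a finding. A missing peak means that none passed the authors' threshold, not that the DNA was closed. In a bulk library, a site open in few cells and a site weakly open in many cannot be told apart.

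The ends of a gene include its promoter, where transcription starts and where general and tissue-specific factors meet. Promoters rich in CpG dinucleotides tend to be open in most tissues, whereas CpG-poor promoters are more often open in the tissues that use the gene. In surface ectoderm, the p63, AP-2, Grainyhead-like, Klf, AP-1 and Tead families of transcription factors are known to act on genes for keratins, cell junctions and the skin barrier. Grainyhead-like factors in particular are known for opening chromatin at epithelial genes.

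Promoter sequences are shown for 6 genes whose promoter window was covered at least in part by an ectoderm-only region and which belong to the strongest regions or to the gene lists below. They were picked after their values were seen, and each holds a match, as did 56 of the 72 windows under such regions. Ap1m2, Epcam, Nectin4, En1 and Col3a1 meet the same conditions and are not printed. Of these, Ap1m2 and Epcam held none of the 11 motifs searched and Nectin4 none of the 6 marked here. Each runs 5′ to 3′ along the gene's strand, from 250 bases before the start site to 50 after it, from RefSeq (GRCm38.p6). Capitals mark matches, on either strand, to AP-1 (TGANTCA), AP-2 (GCCNNNGGC), Grainyhead-like (AACCNGTT), Klf and Sp (GGGNGNGGC), Tead (CATTCC) or the TATA box (TATAAA). The windows are chr1:106860925-106861224 (Serpinb5, + strand), chr6:113458521-113458820 (Il17re, +), chr5:134946885-134947184 (Cldn4, −), chr4:133602119-133602418 (Sfn, −), chr7:30787655-30787954 (Krtdap, +) and chr10:78718244-78718543 (Casp14, −).
Serpinb5: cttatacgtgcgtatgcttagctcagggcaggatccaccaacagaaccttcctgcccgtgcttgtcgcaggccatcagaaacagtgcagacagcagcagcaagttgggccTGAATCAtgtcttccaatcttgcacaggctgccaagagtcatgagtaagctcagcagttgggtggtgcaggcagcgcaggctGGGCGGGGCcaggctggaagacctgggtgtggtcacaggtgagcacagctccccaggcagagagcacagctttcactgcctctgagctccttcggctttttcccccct
Il17re: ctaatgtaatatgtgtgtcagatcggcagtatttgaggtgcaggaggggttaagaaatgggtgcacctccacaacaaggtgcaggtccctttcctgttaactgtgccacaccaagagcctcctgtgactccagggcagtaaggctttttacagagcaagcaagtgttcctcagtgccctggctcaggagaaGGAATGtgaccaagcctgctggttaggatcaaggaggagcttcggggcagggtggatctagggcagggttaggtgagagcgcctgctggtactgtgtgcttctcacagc
Cldn4: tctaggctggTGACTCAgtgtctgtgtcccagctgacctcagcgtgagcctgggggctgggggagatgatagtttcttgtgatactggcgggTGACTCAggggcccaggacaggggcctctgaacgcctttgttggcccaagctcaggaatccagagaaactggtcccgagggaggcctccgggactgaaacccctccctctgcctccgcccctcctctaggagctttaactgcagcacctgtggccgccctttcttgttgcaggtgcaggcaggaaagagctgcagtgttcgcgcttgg
Sfn: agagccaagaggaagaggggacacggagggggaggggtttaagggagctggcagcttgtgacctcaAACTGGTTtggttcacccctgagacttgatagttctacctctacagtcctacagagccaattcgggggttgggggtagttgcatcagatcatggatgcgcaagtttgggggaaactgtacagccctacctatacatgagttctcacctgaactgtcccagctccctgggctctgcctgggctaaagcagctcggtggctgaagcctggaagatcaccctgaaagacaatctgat
Krtdap: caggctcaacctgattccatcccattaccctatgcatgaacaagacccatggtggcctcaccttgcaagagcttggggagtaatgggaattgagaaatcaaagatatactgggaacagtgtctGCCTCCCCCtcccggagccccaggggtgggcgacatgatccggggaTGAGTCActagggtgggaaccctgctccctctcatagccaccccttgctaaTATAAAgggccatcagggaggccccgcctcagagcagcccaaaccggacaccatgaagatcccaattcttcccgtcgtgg
Casp14: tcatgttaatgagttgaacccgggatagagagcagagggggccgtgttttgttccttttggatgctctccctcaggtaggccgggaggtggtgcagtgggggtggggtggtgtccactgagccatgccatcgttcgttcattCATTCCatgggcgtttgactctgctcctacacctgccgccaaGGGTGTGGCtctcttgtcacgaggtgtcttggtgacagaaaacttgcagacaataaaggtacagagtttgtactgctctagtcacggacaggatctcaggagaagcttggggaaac

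Serpinb5, which encodes the serpin maspin of epithelial cells, held an AP-1 match at position -140 and a Klf and Sp match at -58 (positions are those of the match's leftmost base relative to the start). Cldn4, a claudin of tight junctions, held AP-1 matches at -240 and -158. Sfn, which encodes the epithelial 14-3-3 protein stratifin, held a Grainyhead-like match at -184. The ectoderm-only region of Sfn covered only bases of the window after the start site, so this match lay outside the region. A region open in all 5 libraries also lay at an end of Sfn. Krtdap, a secreted protein of differentiating keratinocytes, held a Klf and Sp match at -127, an AP-1 match at -81 and a TATA box at -30. Casp14, the caspase of cornifying epidermis, held a Tead match at -108 and a Klf and Sp match at -66, and Il17re, a receptor chain for interleukin 17 on epithelia, held a Tead match at -59. A match shows only that the letters are there, not that a factor binds.

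The 5 peak lists held between 51392 peaks (hindlimb ectoderm replicate 1) and 120280 (forebrain) on the chromosomes used. The lists give no read totals. A background rate solved from fold and p, which moves with depth, lay between 3.1 and 4.36 reads per position in ectoderm and was 4.62 in forebrain. Hindlimb ectoderm replicate 1 stood apart by its short list. When each library in turn was put in the place of forebrain, 79 and 228 gene-end regions were missing only from forelimb ectoderm replicates 1 and 2. The counts were 1620 and 85 for hindlimb ectoderm replicates 1 and 2, against the 421 missing only from forebrain. The shortest ectoderm list left out more gene-end regions than forebrain did, and without it the ectoderm-only gene-end regions numbered 897.

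Few gene-end regions of ectoderm lacked a forebrain peak. Of the regions at gene ends with a peak in all 4 ectoderm libraries, 4.1% had none in forebrain, against 46.4% of those elsewhere and 25.7% of all (the share over all 231437 merged regions that were ectoderm-only was 2.32%, and over all regions at gene ends 1.53%). Seen from the other side, 63.2% of the regions with a peak in all 5 libraries lay at gene ends, while for forebrain-only regions the share was 6.32%, close to the 7.83% of ectoderm-only regions. The rule fixes the first of these contrasts by peak calls, so it is given without a test.

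**Figure D1:**
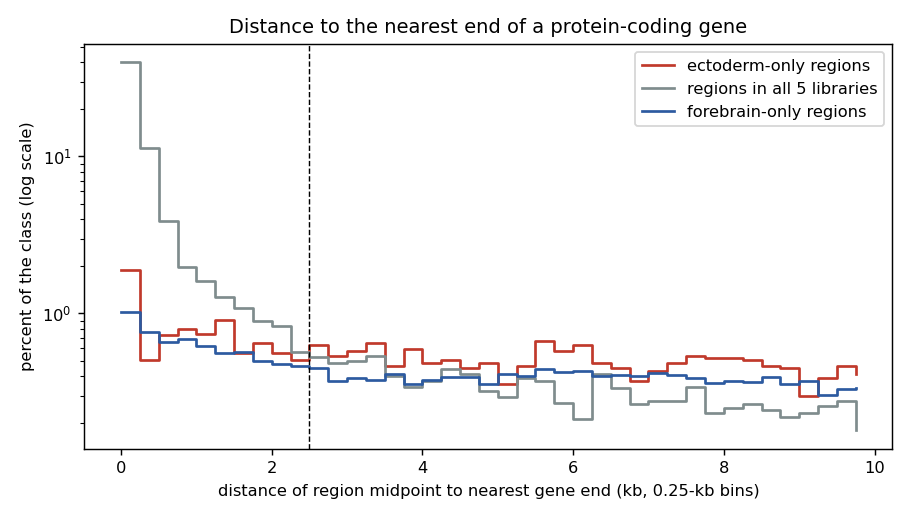
Percent of each class of regions (y axis, log scale) by distance of the midpoint to the nearest end of a protein-coding gene (x axis, kb, bins of 0.25 kb). Ectoderm-only regions are in red, regions in all 5 libraries in grey and forebrain-only regions in blue. The dashed line marks 2.5 kb. Regions in all 5 libraries pile up at the gene end, with 63.1% of their gene-end members within 250 bp, and the ectoderm-only curve is nearly flat beyond its first bin.

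Ectoderm-only regions at gene ends were narrower and lay farther from the end than regions open everywhere. Their median width was 477 bp (quartiles 396 and 600), against 1061 bp (876 and 1282) for gene-end regions in all 5 libraries. Ectoderm-only regions elsewhere had a median width of 498 bp, and forebrain-only regions at gene ends 312 bp. The median distance of the ectoderm-only regions to the gene end was 1016 bp, against 180 bp for those in all 5 libraries. Forebrain-only regions at gene ends lay as far out, at a median of 1008 bp. Of the 421 regions, 58 lay within 100 bp, 101 (24.0%) within 250 bp and 210 (49.9%) within 1 kb of an end, as the plot of distances shows. A strand was found in the RefSeq promoter table for the nearest gene of 318 regions, 309 of 410 genes. Of these, 201 lay on the start side and 117 at the far end of the gene, a start share of 63.2% (95% exact interval 57.6 to 68.5). For gene-end regions in all 5 libraries the start share was 95.8% (95.3 to 96.2), and for forebrain-only ones 50.4% (48.7 to 52.0). Of the 101 regions within 250 bp, 69 were at a start, 12 at a far end and 20 had no strand. These intervals cover counting error only, and neighbouring regions are not independent.

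At the boundary of the rule, the outermost members lay 2467 bp (Gstcd), 2486 bp (Mroh1) and 2489 bp (Crtac1) from an end, and ectoderm-only regions just outside lay 2504 bp (Fam160b2) and 2525 bp (Cplx1) from one. The members with the lowest −log10 q in their weakest library were at Galnt5 (1.44), Aknad1 (1.52) and Rnpepl1 (1.56), just inside the authors' limit at a q of 0.05. In all, 259 of the 421 regions had a −log10 q of 5 or more in each ectoderm library. Read across the lists by −log10 q, the weakest library was hindlimb ectoderm replicate 1 for 314 regions and forelimb ectoderm replicate 1 for 58. It was forelimb ectoderm replicate 2 for 37 and hindlimb ectoderm replicate 2 for 12.

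Peak strength was read as the authors' fold enrichment at the summit over the local background, and as the percentile of −log10 p among all peaks of the same list. Over the 421 regions the median fold stood at 4.92 in forelimb ectoderm replicate 1 and 5.04 in replicate 2. It was 3.58 and 6.13 in hindlimb ectoderm replicates 1 and 2, with values in any library from 1.74 to 18.8. Regions elsewhere had slightly larger median folds, 5.54 and 5.65 in forelimb and 3.92 and 7.39 in hindlimb ectoderm. The gene-end median was lower in 4 of 4 libraries, by a mean log2 ratio of -0.18 ± 0.06 (SD, n = 4 libraries; exact two-sided sign-flip permutation test, p = 0.12, the smallest that 4 libraries can give). The local background that divides the fold was higher at gene ends: its median was 1.90 times the library's background rate there, against 1.45 times elsewhere. By percentile within the list the difference was small: 74.6 and 76.8 in forelimb and 71.3 and 80.9 in hindlimb ectoderm at gene ends, against 74.6, 77.7, 71.6 and 82.6 elsewhere. The part of the local background in the lower folds was not tested. The percentiles of the 421 regions correlated between libraries with Spearman's rho of 0.76 (the forelimb pair), 0.58 (the hindlimb pair) and 0.47 to 0.69 across limbs. These are descriptions over regions that share sites and thresholds.

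The strongest region by mean percentile over the 4 lists lay at Cldn8, a claudin of epithelial tight junctions (chr16:88563099-88563831, 282 bp from a gene end). Forelimb ectoderm replicates 1 and 2 gave folds of 13.9 and 16.7, and hindlimb ectoderm replicates 1 and 2 gave 10.1 and 18.1, with summit pileups of 146, 192, 86 and 280 reads implied by the statistics. It ranked at percentiles 98.2, 99.5, 97.3 and 99.4. Serpinb5 came next (chr1:106860753-106861459, 69 bp from the start), with folds of 12.8, 14.7, 10.3 and 15.2. The region ranked above percentile 96 in every ectoderm list and spans the promoter printed above. At Il17re (chr6:113458509-113458935, 23 bp from the start) the folds were 16.5, 12.6, 7.11 and 14.55. Esrp1, which encodes a splicing regulator of epithelial cells, had a region 51 bp from an end (chr4:11386572-11387096) with folds of 7.20, 7.31, 6.57 and 8.09. It lay only 159 bp from a forebrain peak, and its local background was 4.63 times the library rate. All of these were strong in both limbs.

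The other regions among the 10 strongest lay near genes of other roles. Rbbp8, a DNA end-resection factor, had folds of 13.46 and 11.6 in forelimb and 11 and 18.8 in hindlimb ectoderm at 110 bp from an end. The region nearest to Uqcrc1, a subunit of a respiratory complex, lay 4064 bp from an end of Col7a1, which encodes the anchoring-fibril collagen of skin and fell outside the window. Its folds were 9.04, 9.07, 6.50 and 11.8. The remaining ones were at Fjx1, Mdfic, Gm29975 and Gstcd, with mean percentiles of 96.9, 96.3, 96.1 and 95.1. The nearest gene is a matter of distance and does not say which gene a region serves.

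Epidermal and epithelial genes were among those with such a region at an end. Over 21631 protein-coding genes, 448 (2.07%) had an ectoderm-only region within 2.5 kb of an end, 10994 (50.8%) a region in all 5 libraries and 4453 (20.6%) a forebrain-only region. Against the 2.07%, the counts were 5 of 20 genes (25%) for epithelial identity, proteases and trafficking, 7 of 32 (21.9%) for epithelial junctions, 5 of 26 (19.2%) for differentiated epidermis, 4 of 25 (16.0%) for basal epidermis and 1 of 10 for simple epithelial keratins. Without hindlimb ectoderm replicate 1 the counts were 8 of 20, 8 of 32, 6 of 26, 7 of 25 and 3 of 10 in the same order. With a gene-end window of 1 kb they fell to 4, 5, 4, 3 and 0. These lists were chosen with earlier results of these data known, so the counts are descriptions and carry no test.

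Lists for other tissues were mixed. Limb mesenchyme had 2 of 20 genes (Col3a1 and Dcn), melanocytes 2 of 10 (Dct and Mlana) and endothelium 2 of 10 (Flt1 and Tek), above the background share. With only peaks of a −log10 q of 5 or more, and with every list cut to its strongest peaks at the length of the shortest (lists of equal length), endothelium had 0 of 10 and mesenchyme 1 of 20. Melanocytes had 1 of 10 at that q and 2 of 10 with lists of equal length. With a gene-end window of 1 kb, endothelium had 2 of 10, mesenchyme 2 of 20 and melanocytes 1 of 10. In the main setting, hair and nail appendages had 2 of 20 (Wnt10a and Wnt10b) and ridge and limb ectoderm signalling 1 of 21 (En1). EGF and Notch genes had 1 of 14 (Jag1) and forebrain progenitors 1 of 17 (Dlx2). The region within the window of Jag1 was nearer to the far end of Slx4ip, at 1116 bp. No gene was found for blood and immune cells (0 of 10), Merkel and Schwann cells (0 of 10), neurons (0 of 18) or housekeeping genes (0 of 20). Merkel and Schwann cells had 3 of 10 with lists of equal length and 1 of 10 with the 5 kb window. Without hindlimb ectoderm replicate 1, blood and immune cells had 1 of 10 and ridge signalling 3 of 21. Forebrain-only regions lay at 13 of 18 neuron genes and 12 of 17 forebrain progenitor genes. In each epidermal and epithelial list, genes with a forebrain-only region also outnumbered those with an ectoderm-only one. The counts were 9 of 20 for epithelial identity, 9 of 32 for junctions and 8 of 26 for differentiated epidermis. Basal epidermis had 6 of 25 and simple keratins 2 of 10. Mesenchyme, melanocytes and endothelium had 40% each, ridge signalling 47.6% and blood 20%, against 20.6% of all genes. Housekeeping genes had a region in all 5 libraries at 17 of 20.

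**Figure D2:**
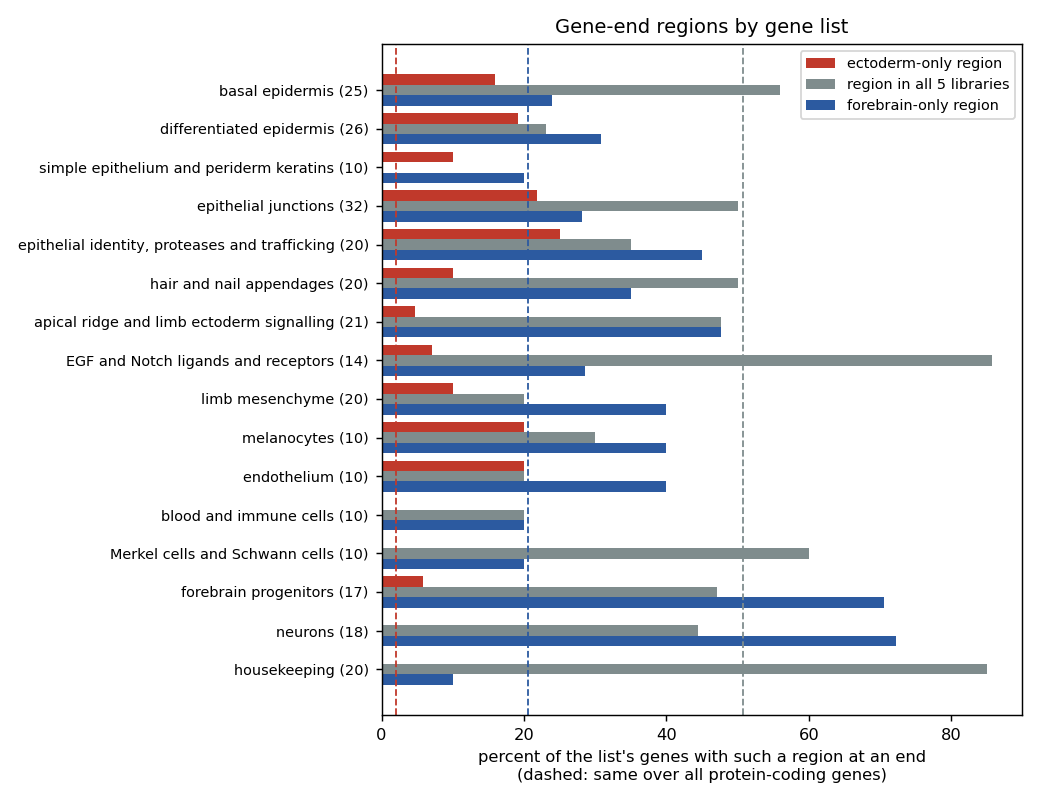
Percent of the genes in each list (x axis) that had a region of each class within 2.5 kb of an end. Lists run down the page with their number of genes in brackets. Red bars stand for ectoderm-only regions, grey for regions in all 5 libraries and blue for forebrain-only regions, and dashed lines in the same colours give the share over all 21631 genes. The red bars of the 4 longest epidermal and epithelial lists lie between 16.0% and 25%, against a line at 2.07%, and the blue bars are longest for the neural lists.

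The labelled tissue was checked against its markers by counting genes with a peak of any kind at an end. Of 25 basal epidermis genes, 23 and 22 had one in forelimb and 16 and 21 in hindlimb ectoderm replicates 1 and 2, against 19 in forebrain. Of 18 neuron genes, 12 and 13 had one in forelimb and 9 and 14 in hindlimb ectoderm, against 18 in forebrain. Other lists of ectoderm were less clear. In the same order of libraries, with forebrain last, the counts were 29, 29, 25, 27 and 30 of 32 for junctions. Epithelial identity had 16, 17, 11, 18 and 16 of 20, and differentiated epidermis 20, 15, 13, 20 and 14 of 26. Simple keratins had 5, 4, 3, 6 and 4 of 10. Ridge signalling had 19, 15, 15, 20 and 20 of 21, and hair and nail appendages 19, 16, 15, 18 and 18 of 20. Forebrain peaks were thus present at most basal epidermis genes, and ectoderm peaks at many neuron genes. Over all genes, between 59.2% and 68.6% had a gene-end peak in an ectoderm library, and 72.3% had one in forebrain.

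Among basal genes, Krt14, the keratin of the basal layer, had a region 1364 bp from its start (chr11:100208575-100209173). The folds were 4.02 and 3.99 in forelimb and 3.42 and 5.24 in hindlimb ectoderm, at percentiles from 70.6 to 80.2 of the lists. The nearest forebrain peak was 38863 bp away, and forebrain had no peak at either end of the gene. Tfap2a, an AP-2 factor of the early ectoderm, had a region 31 bp from the start of its gene record (chr13:40737911-40738503). This region overlapped no promoter window, and its folds were 4.19, 3.09, 3.80 and 4.42. Its relative Tfap2b had weaker peaks, with folds of 3.36, 2.82, 3.33 and 5.34 and a −log10 q of 4.36 in forelimb ectoderm replicate 2, its lowest. At Sfn (chr4:133601778-133602165) the folds were 6.84, 5.44, 3.73 and 5.95, and hindlimb ectoderm replicate 1 gave the lowest.

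Among the 5 differentiation genes the distance to the end ran from 1 bp at Casp14 to 2048 bp at Krt1. Casp14 had its region centred 1 bp from the start (chr10:78718010-78718681), with folds of 7.78 in both forelimb replicates and 4.66 and 10.2 in hindlimb ectoderm replicates 1 and 2. Sprr1a, a precursor of the cornified envelope, had folds of 5.48, 7.72, 4.66 and 6.01 at 649 bp from its start, 24142 bp from the nearest forebrain peak. Krtdap, whose promoter with a TATA box is printed above, had folds of 4.38, 4.52, 3.40 and 5.73. The region of Krt1, a keratin of suprabasal cells, had folds of 6.04, 5.40, 3.58 and 8.39, and that of Abca12, a lipid transporter of the barrier, had 4.06, 3.34, 3.23 and 8.08. For Abca12 the percentile in the list was 84.4 in hindlimb ectoderm replicate 2 and between 36.7 and 48.4 in the other libraries, so 1 library ranked it far above the others.

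Junction genes made up the longest group. Besides Cldn8 and Cldn4 it included Perp and Pkp3 of desmosomes, Nectin4 of adherens junctions and Epcam, an epithelial adhesion molecule. Cldn4 (chr5:134946788-134947387) had folds of 7.17 and 6.56 in forelimb and 3.74 and 8.21 in hindlimb ectoderm, and its region lay 119 bp from a forebrain peak. Perp had folds of 6.88, 5.96, 4.83 and 7.55, and Nectin4 4.89, 5.34, 4.63 and 6.99. At Epcam the folds were 5.37, 4.90, 3.43 and 7.10, but the gap to the next forebrain peak was 12 bp, and a region open in all 5 libraries lay at the same gene. Krt8, a keratin of simple epithelia, had folds of 4.42, 7.14, 3.55 and 8.19.

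Of the genes for epithelial identity and trafficking, Macc1, a regulator of growth factor receptor expression, had folds of 10.7 and 11.6 in forelimb and 6.22 and 14.3 in hindlimb ectoderm. The region lay 73 bp from the start of its gene record (chr12:119390131-119390811) and 12887 bp from the nearest forebrain peak. It overlapped no promoter window. Ap1m2, the adaptor subunit of epithelial cells for basolateral sorting, had folds of 9.47, 6.07, 4.94 and 9.03. Esrp2, the second splicing regulator of this family, had 6.22, 6.64, 4.14 and 6.93. The membrane protease gene Tmprss4 had weak peaks of 3.07, 3.15, 3.42 and 4.31 fold, with a lowest −log10 q of 3.03. The ligand genes Wnt10a and Wnt10b, known from hair placodes, had mean percentiles of 77.7 and 35.1, and En1, a dorsoventral limb factor, had 70.2.

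Of the 6 regions at genes of mesenchyme, melanocytes and endothelium, 5 ranked below the median of all 421 regions (a mean percentile of 74.1), and Dcn ranked above it at 77.1. From the epidermal and epithelial lists, Krt14 (73.7), Krtdap (71.6), Tfap2a (71.0), Tfap2b (61.3), Abca12 (54.4) and Tmprss4 (45.9) were also below that median. The other regions at genes of those lists ranked above it. Dcn, a proteoglycan of connective tissue, ranked at percentiles 54.8 and 75.6 in forelimb and 88.5 and 89.4 in hindlimb ectoderm. Col3a1, a fibrillar collagen, ranked at 18.2 and 41.4 in forelimb and 76.9 and 31.9 in hindlimb ectoderm. The melanocyte genes Dct and Mlana had mean percentiles of 67.3 and 68.3, and the endothelial receptors Flt1 and Tek 45.1 and 42.4. Of the 20 mesenchyme genes, 14 and 9 had a peak of any kind at an end in forelimb and 11 and 16 in hindlimb ectoderm, against 17 in forebrain. For the 10 melanocyte genes the counts were 6, 7, 5 and 6, against 7 in forebrain, and for the 10 endothelial genes 8, 7, 4 and 5, against 8. The part of such cells in these regions was not tested.

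**Figure D3:**
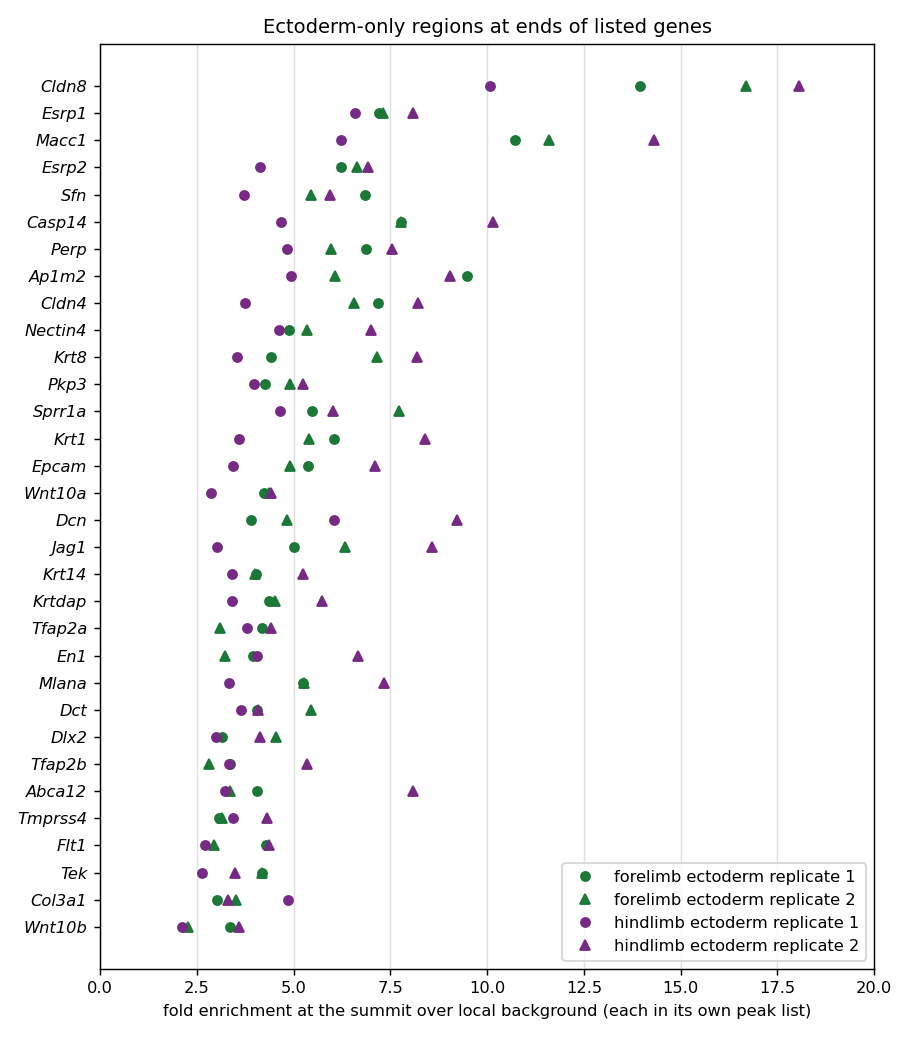
Fold enrichment at the summit (x axis) of 32 ectoderm-only regions at ends of listed genes (y axis, in order of mean percentile). Green marks forelimb and purple hindlimb ectoderm, circles replicate 1 and triangles replicate 2. Each point is 1 library and belongs to its own peak list. The region labelled Jag1 has Slx4ip as its nearest gene. Hindlimb ectoderm replicate 1 gives the lowest point for 26 of the 32, and the points of Cldn8, from 10.1 to 18.1, and of Macc1, from 6.22 to 14.3, reach farthest to the right.

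Some regions had a neighbour among the 421. Of these, 35 had another within 20 kb and 61 within 100 kb. The same share was not taken for other regions, so the counts do not say whether the regions were grouped. The nearest gene was shared by a pair of regions at 11 genes, which were AI661453, Alb, Amotl1, H60c, Lpcat4, Ptpn3, Ptpn6, Rab32, S100a16, Sfi1 and Smpdl3a. At Amotl1, a Hippo pathway scaffold, both lay within 536 bp of the start of the gene record and ranked at mean percentiles 86.2 and 81.3. Neither overlapped a promoter window. S100a16, a calcium-binding protein, had 1 region 64 bp from its start (mean percentile 77.8) and 1 at the far end (88.7). Local background marked some loci: it was 15.8 times the library rate at Gm51877 and 8.38 times at Cwc22, against a median of 1.90. At Sfi1 it was 2.55 and 2.3 times. Multicopy sequence was not tested as its source.

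Most genes with an ectoderm-only region at an end were not without forebrain peaks. Of the 448 genes, 321 (71.7%) also had a region with a forebrain peak at an end, against 72.3% of all protein-coding genes. A region open in all 5 libraries lay at an end of 193 (43.1%), and a forebrain-only region at 116 (25.9%). Among the 33 listed genes, 14 had both an ectoderm-only and a forebrain-only region at their ends, among them Tfap2a, Tfap2b, Krt1, Krt8, Krtdap, Cldn4, Cldn8, Ap1m2 and Macc1. No forebrain peak lay at either end of 6 listed genes, which were Krt14, Casp14, Sprr1a, Abca12, Tmprss4 and Mlana.

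The forebrain peaks came close to many of these regions. A forebrain peak lay within 1 kb of 118 of 421 regions (28.0%, 95% exact interval 23.8 to 32.6), against 10.7% (9.82 to 11.6) of ectoderm-only regions elsewhere. Within 100 bp the counts were 16 of 421 and 51 of 4958. The median gap was 3134 bp (quartiles 823 and 9553) at gene ends and 6278 bp (2617 and 13597) elsewhere. Regions on the start side had a forebrain peak within 1 kb in 37.3% of cases, and those at the far end in 14.53%. Regions more than 10 kb from any forebrain peak numbered 104.

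**Figure D4:**
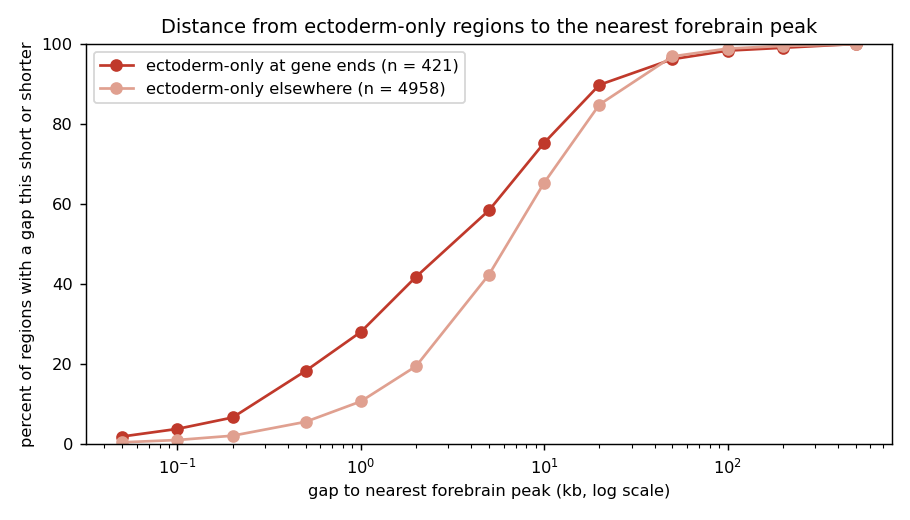
Percent of regions (y axis) whose gap to the nearest forebrain peak was at or below the length on the x axis (kb, log scale). Ectoderm-only regions at gene ends are in dark red (n = 421) and those elsewhere in light red (n = 4958). At 1 kb the curves stand at 28.0% and 10.7%, and they meet near 50 kb.

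Promoters under these regions were poor in CpG. Of the 421 regions, 70 overlapped the promoter window of a gene, and 72 windows of 70 genes were covered at least in part. The median ratio of observed to expected CpG was 0.23 in these windows, against 0.81 in 9873 windows under regions open in all 5 libraries, 0.43 in 882 windows under forebrain-only regions and 0.57 in all 21045 windows of protein-coding genes. The 7167 windows without a peak in any library were as poor, with a median of 0.18. A ratio above 0.6, as in CpG islands, was found in 9.72% of the 72 windows, against 81.6%, 32.7% and 48.1% in the same order. The median GC content was 53.5%, against 56.7% in all windows. Among the printed promoters the ratio was 0.27 at Serpinb5, 0.14 at Il17re, 0.32 at Cldn4, 0.19 at Sfn, 0.30 at Krtdap and 0.43 at Casp14.

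Motif matches were counted over the whole of the same windows, on both strands. A counted match can therefore lie outside the region, as at Sfn. The Tead letters CATTCC were in 22 of 72 windows (30.6%, 95% exact interval 20.2 to 42.5), against 10.8% of windows under regions in all 5 libraries and 13.48% of all windows. AP-1 (TGANTCA) was in 12 (16.7%, 8.92 to 27.3), against 3.60% and 7.04%. The Grainyhead-like letters AACCNGTT were in 7 (9.72%, 4.0 to 19), against 1.77% and 1.97%. Because CpG-poor promoters differ in composition, the share over all 10922 windows with a CpG ratio of 0.6 or less was also taken: 16.7% for Tead, 10.4% for AP-1 and 2.33% for Grainyhead-like letters. This CpG-poor share lay inside the interval of the 72 windows for AP-1, and below it for Tead and Grainyhead-like letters. The Ets letters CCGGAAG, frequent in promoters open everywhere (20.0%), were in 5.56% of the 72 windows, near the 4.18% of the CpG-poor ones.

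AP-2 and Klf and Sp letters were near the share of all windows but above that of the CpG-poor ones. AP-2 letters were in 20.8% of the 72 windows (12.2 to 32.0), against 20.1% of all windows and 11% of the CpG-poor ones. Klf and Sp letters were in 36.1% (25.1 to 48.3), against 32.3% and 17.9%. The TATA box was in 12.5%, against 12.7% and 19.2%. Windows under forebrain-only regions were similar for the GC-rich motifs, with AP-2 letters in 21.7% and Klf and Sp letters in 30.7%. The CpG-poor windows had a median GC content of 49.7%, against 53.5% in the 72 windows. A stringent p63 pattern was in 0 of 72, which allows a share of up to 4.99%, and was in 0.70% of all windows. Some windows of 1 gene overlap each other, so they are not independent, and the windows cover only 70 of the 421 regions.

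**Figure D5:**
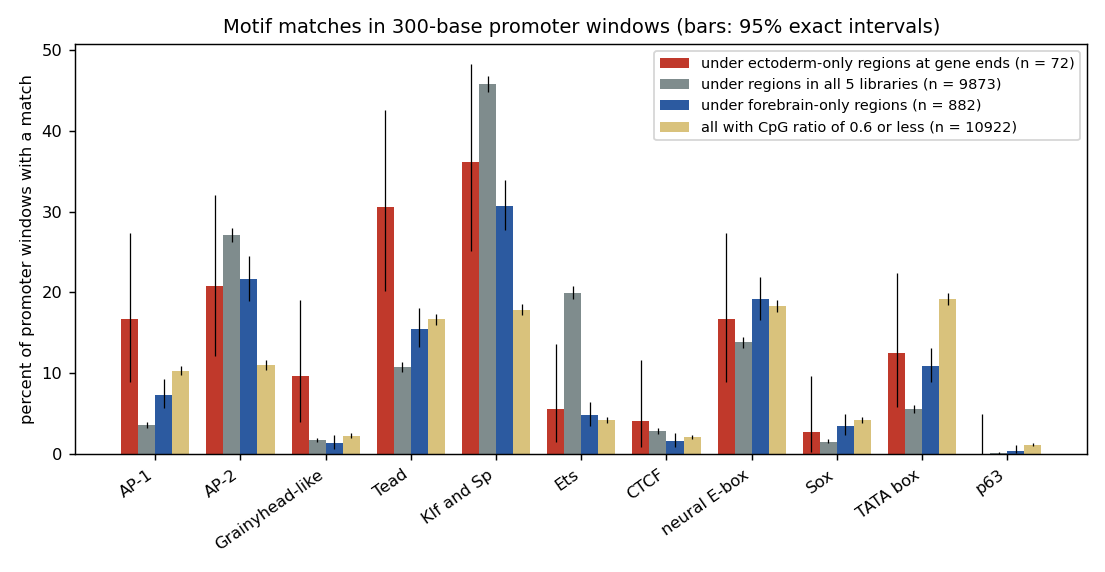
Percent of 300-base promoter windows with at least 1 match (y axis) for 11 motifs (x axis). Red bars are the 72 windows under ectoderm-only regions at gene ends, grey the windows under regions in all 5 libraries, blue those under forebrain-only regions and yellow all windows with a CpG ratio of 0.6 or less. Error bars are 95% exact intervals, which cover counting error only. The red bars for Tead (30.6%), AP-1 (16.7%) and Grainyhead-like (9.72%) are above the other 3, with wide intervals. For AP-1 the interval of the red bar includes the height of the yellow bar.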

How the data were processed

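ATAC-seq peak lists of 5 libraries were used. Per the submitters' processing notes, the tools were MACS2 2.1.1.20160309, Bowtie2 2.3.5, cutadapt 1.16, bedtools and Picard, with mm10 as the build. Any shift of reads to the transposase cut is not stated. The authors deposited a separate list for each library. Each list gives a fold ratio at the summit over local background, −log10 p and −log10 q per peak, as deposited, with the summit offset in bp (another deposited column); the deposited score was not used. Intervals with several summits counted as 1 peak. These values belong to their own list, and classes of regions were compared within it, by percentile or median. The weakest library of a region, by −log10 q, and the lowest of its folds were read across lists. No correction was made there for depth or list length. Summit pileup and local background were solved from each peak's fold and −log10 p with the Poisson test MACS2 uses (the very strongest peaks, whose p is too small to compute, were not attempted; 100% of the rest were solved to 0.01 in −log10 p). The depth is otherwise unknown.

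Regions, gene ends and classes were computed in Python 3.11.15 (pandas 2.3.3, scipy 1.17.1) and tested on simulated data. Gene ends came from the RefSeq table of GRCm38.p6, the assembly of mm10, and strand and sequence from its promoter table. A distance to the start of a gene is thus taken to the outer end of its record. That end need not be the start site of its promoter window. The 16 gene lists, the motifs and the regions themselves were chosen with earlier results of these data known. The text names the listed genes with such a region, the 10 strongest regions, genes nearest to 2 or more and those at the limits of the rule; some items that the rule names are not reported here. Any further gene was picked once its values were known. Alternatives were stricter q, other windows and overlaps, lists of equal length and leaving out each ectoderm library. Shares have exact Clopper-Pearson 95% intervals.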

Additional observations from a re-analysis of the deposited data

Results flagged for a closer look

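Chromosome Y was not part of the regions described. On it, 24 of 175 merged regions were ectoderm-only, and 6 were forebrain-only. Of the 231437 regions on the chromosomes used, 5379 (2.32%) were ectoderm-only and 76769 forebrain-only. It is given here because it lies outside the comparisons and more of its regions had a peak in each ectoderm library than in forebrain. The ectoderm libraries had peaks in 60 and 90 (forelimb ectoderm replicates 1 and 2) and 116 and 69 (hindlimb ectoderm replicates 1 and 2) of these regions, and forebrain in 16. The labels used here give no sex for the embryos.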

How the results depend on the processing

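The number of ectoderm-only gene-end regions was 210 with a window of 1 kb, 710 with 5 kb, and 259 when presence in ectoderm needed a −log10 q of 5 or more; the other settings that kept all libraries gave 288 to 537. Leaving out each ectoderm library gave 437 to 897 regions, the highest without hindlimb ectoderm replicate 1. The share of gene-end regions lacking a forebrain peak was 2.32% at 1 kb, 6.33% at 5 kb, 3.39% and 3.05% at the stricter q in every list and for presence only, 5.44% with lists of equal length and 4.22% to 7.26% without each ectoderm library. The share with a forebrain peak within 1 kb was 21.0% with the 5 kb window, 19.2% with lists of equal length and, for a gap of 500 bp, 18.3%; it was 27.5% to 28.5% without each library. Over all promoters of genes with such a region, most of which the region did not cover, Grainyhead-like letters fell to 3.49% and Tead letters to 18.0%. AP-1 letters were in 10.7% of them, beside 10.4% of CpG-poor windows. AP-1 and the other motif shares stayed inside the main interval in every setting tried, among them any ectoderm-only region over the promoter, which was chosen after seeing the data. The lower median fold at gene ends kept its sign in all 8 alternatives (mean log2 ratio -0.25 to -0.13). Listed genes with a region numbered 22 to 48. Of 52 named genes, 41 were kept at the stricter q, 36 at 1 kb, 47 with lists of equal length and all 52 without any 1 library; Col3a1, Flt1, Tek, Tmprss4 and Wnt10b were lost with lists of equal length, and Abca12, Col3a1, Flt1, H60c, Jag1, Mlana, Ptpn3, Tek, Tfap2b, Tmprss4 and Wnt10b were lost at the stricter q. No paired analysis was possible because no test compared groups of samples that share replicate numbers; the sign-flip test sets 2 medians of the same library side by side.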

Other observations

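Gene families were counted after their values were seen and therefore without a test. Regions lay at ends of 4 of 15 S100a genes (S100a9, S100a13, S100a14 and S100a16), 4 of 26 kallikreins (Klk8, Klk9, Klk11 and Klk12), 3 of 17 Tmprss proteases and 3 of 28 clade B serpins (Serpinb5, Serpinb9c and Serpinb10). They also lay at Trpv3 and Trpv6 among 6 Trpv channels, and at 4 of 53 keratins (Krt1, Krt8, Krt14 and Krt71). Glutathione transferases had 3 of 22, lipases of the Lipa to Lipn group 2 of 14 and claudins 2 of 35. Neighbouring genes of a family can share 1 region. By contrast, 2 of 1110 olfactory receptor genes and 1 of 355 vomeronasal receptor genes had one, and 2 of 97 ribosomal protein genes, a share of 2.06% beside 2.07% over all protein-coding genes.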
